A study of Mus musculus with 89 samples.

Results

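The cytosolic ribosome of mouse neural stem cells was followed through the genes of its protein subunits. The members were the rows of the count table whose symbols begin with Rpl or Rps and a digit, together with Rplp0, Rplp1, Rplp2 and Rpsa. Names of the S6 kinases and names of annotated pseudogenes were left out. This gave 88 of the 24411 genes listed, by name alone. They comprised 43 proteins of the large subunit, 31 proteins of the small subunit, 3 proteins of the stalk, 10 paralogues or copies, and Rps19bp1, which carries a matching name but encodes a binding partner of Rps19 and of the deacetylase Sirt1. Single cells had been sorted from the dissected dentate gyrus of homozygous Nestin:CFPnuc mice on the C57BL/6 background, in which the Nestin promoter drives a nuclear cyan fluorescent protein. Each of the 89 samples is 1 cell, amplified and sequenced with a full-length SMART-Seq v4 protocol, 41 cells at 4.5 months of age and 48 at 2 months. A deposited table places each cell in a class, read here as intermediate progenitor cell (IPC), activated neural stem cell (aNSC) or quiescent neural stem cell (qNSC), and gives the qNSC 1 of 3 colours, green, red or blue. No treatment or other allele is named, and all groups share the reporter.

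The 11 IPC comprised 6 cells of 4.5 months and 5 of 2 months. Of the 18 aNSC, 7 came from 4.5 months and 11 from 2 months. The 60 qNSC held 25 green cells (10 of 4.5 months and 15 of 2 months), 26 red cells (13 of each age) and 9 blue cells (5 of 4.5 months and 4 of 2 months). How classes and colours were assigned is not stated. Where they rest on these same measurements, some of what separates them follows from how they were drawn. The reporter marks cells in which the Nestin promoter is active, which in the brain can include vascular and glial cells. No label names the animal of a cell, so each group counts as 1 sample. All differences below are therefore sizes in these cells, given with no test, and an SD describes the spread between cells and not between animals.

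A ribosome is built from ribosomal RNA and usually a single copy of each ribosomal protein, assembled in the nucleolus into a small subunit that decodes the messenger RNA and a large subunit that joins amino acids. Ribosomal protein mRNAs are made in large numbers, and most begin with a short run of pyrimidines at the cap, the terminal oligopyrimidine (TOP) tract, through which mTORC1 and Larp1 set their translation. Stem cells that leave quiescence in the adult brain are known to raise ribosome production and protein synthesis, and a level of mRNA does not by itself give the rate at which it is translated.

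Depth and cell identity bear on every value that follows. The total count of a cell was 234608 to 1896075 (median 912394), and cells held reads of 2156 to 6046 genes. Hopx, a marker of quiescent stem cells, had at least 10 reads in 7 of 11 IPC, 10 of 18 aNSC and 59 of 60 qNSC. At least 50% of a marker list of another cell type had 10 or more reads each in 1 IPC, 8 aNSC and 4 qNSC. Among the aNSC, 7 cells had at least 10 reads of Pdgfra, the receptor that defines oligodendrocyte precursors. Their summed level of 8 precursor markers was 7719 to 17299.7 CPM (counts of a gene per 1000000 counts of the cell), against 0 to 212 CPM in the other 11 aNSC, and Hopx had 10 reads in 0 of the 7 and 10 of the 11. Class comparisons are therefore also given without these 7 cells. The ages differed in sex-linked transcripts too: Xist or Tsix was read in 37 of 41 cells of 4.5 months and 0 of 48 cells of 2 months, and Y-linked genes in 0 of 41 and 38 of 48. Age and sex cannot be told apart.

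Ribosomal protein genes took up a larger part of the counts in IPC than in aNSC, and in aNSC than in qNSC. In IPC they held 2.28% ± 0.96 of all counts of a cell (mean ± SD, n = 11 cells), in aNSC 1.12% ± 0.513 (n = 18) and in qNSC 0.65% ± 0.301 (n = 60). The lowest, median and highest cell were 1.17%, 1.96% and 4.38% in IPC, 0.399%, 0.996% and 2.24% in aNSC, and 0.234%, 0.556% and 1.74% in qNSC. The ranges overlapped, but the lowest IPC lay above the medians of both other classes. The 7 Pdgfra-positive aNSC held 1.09% ± 0.329 and the other 11 aNSC 1.15% ± 0.617, so the intermediate share of aNSC was present in both. In TPM (transcript abundance scaled by length and to a sum of 1000000 per cell), which gives short mRNAs more weight, the means were 6.66% ± 2.00 in IPC, 3.62% ± 1.47 in aNSC and 1.90% ± 0.753 in qNSC.

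Within the qNSC, the share was 0.754% ± 0.35 in green cells (range 0.341% to 1.74%, n = 25), 0.573% ± 0.216 in red cells (0.294% to 1.11%, n = 26) and 0.583% ± 0.309 in blue cells (0.234% to 1.21%, n = 9). The differences between colours were smaller than the SD within green cells. The lowest IPC, at 1.17%, lay above every red qNSC, but not above every green or blue one. Between the ages the means lay close together in each class. They were 2.48% ± 1.10 at 4.5 months and 2.05% ± 0.817 at 2 months in IPC, 1.09% ± 0.473 and 1.15% ± 0.558 in aNSC, and 0.655% ± 0.328 and 0.646% ± 0.281 in qNSC. In each class the age difference was under 1 SD of either age. Among aNSC of 4.5 months, 1 cell stood at 2.12%, above the next at 1.08%, and the mean without it was 0.912% ± 0.131 (n = 6).

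**Figure D1:**
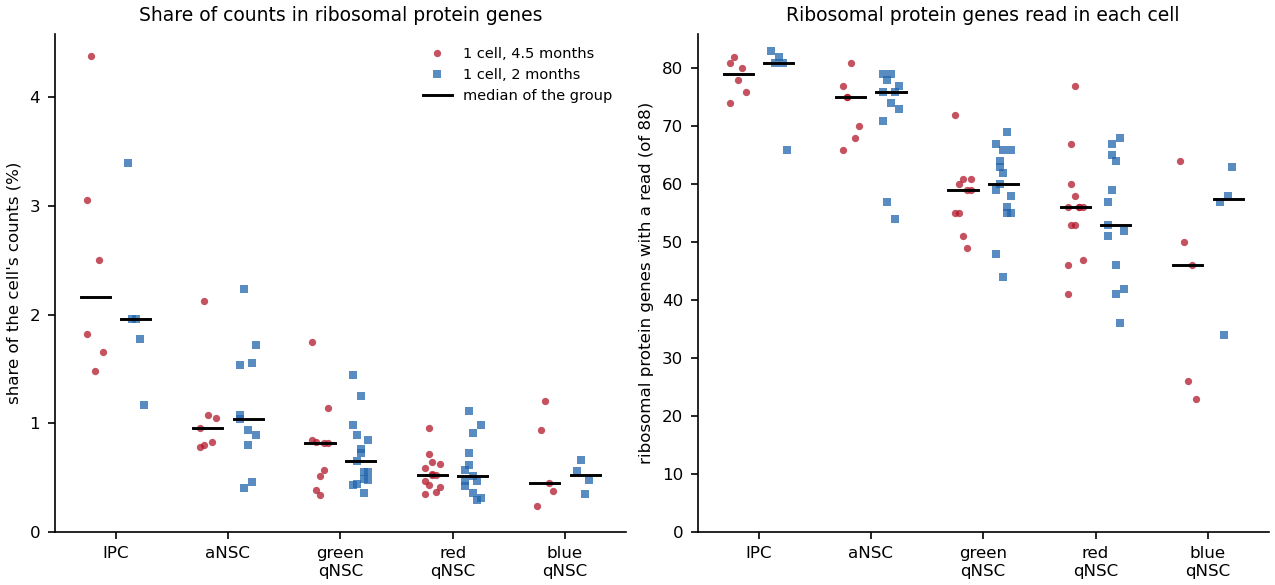
Share of each cell's counts that fell on the 88 ribosomal protein genes, in percent, by class, qNSC colour and age; and, beside it, the number of the 88 genes with a read in each cell. Each point is 1 cell, and bars mark the medians. The IPC medians are highest (1.96% over both ages) and the qNSC medians lowest (0.556%), and the lowest IPC (1.17%) lies above the highest red qNSC (1.11%).

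More of the genes were also caught per cell. The median cell had a read of 81 members in IPC, 75 in aNSC and 56.5 in qNSC, and of 59 members in green, 56 in red and 50 in blue qNSC. When every cell was thinned to 444835 reads, which 80 cells reached and 9 shallower cells (1 IPC, 3 aNSC and 5 qNSC) did not, the medians were 80.5, 75 and 55. The genes read per thinned cell did not follow that order, with medians of 4060.5 in IPC, 4330 in aNSC and 3475 in qNSC. In all, 86 members had a read somewhere. Rpl10l and Rpl39l, known from the testis, had none, and Rpl3l, known from heart and skeletal muscle, was read in 2 cells. No member was read in all 89 cells. Rps29, a small zinc-binding protein of the small subunit, came closest with 88 cells, and the median member was read in 66.5 cells. A cell without a read is not a cell without the transcript.

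Against qNSC, nearly all members were higher in IPC. Of the 88, 85 were measured, meaning that 20% or more of the cells of 1 class or the other had a read. Of these, 1 member, Rps27, was measured through IPC alone. All 85 had a higher mean log2(CPM + 1) in IPC, beside 68.9% of all genes. A gene is called past the fold where that difference is at least 1 and the ratio of summed CPM at least 2 in the same direction. Of the measured members, 82 (96.5%) were past the fold and higher, beside 34.9% of all genes measured in this comparison and 14.4% lower. The members' median difference was 3.18 against 0.92 over all genes, and their median ratio of summed CPM 3.67 against 1.41. Past the fold were 42 of 43 large-subunit, 31 of 31 small-subunit, 3 of 3 stalk proteins and 5 of 7 measured paralogues or copies. At 4.5 months the members' median was 3.42 (all genes 0.89) and at 2 months 2.89 (all genes 0.89). Past the fold and higher were 79 of 84 members at 4.5 months and 76 of 85 at 2 months, beside 36% and 33.9% of all genes. At 2 months Rpl26 had a lower mean in IPC than in qNSC (-0.28, ratio 0.374), though 92.5% of its values above 0 were not whole.

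The largest difference was that of Rps27a, which encodes a small-subunit protein fused to ubiquitin. It was read in 11 of 11 IPC at 133 to 630.1 CPM with a median of 249.8, and in 32 of 60 qNSC at 0 to 366 CPM with a median of 2.22 (difference 4.91, ratio 5.09). Such ranges and medians are over all cells of a group, those without a read included. The highest qNSC lay inside the IPC range, but the qNSC median was close to 0. Rpsa, a small-subunit protein also known as the laminin receptor precursor, had 166 to 1049 CPM with a median of 318 in IPC and 0 to 549.9 CPM with a median of 49.4 in qNSC (difference 4.74). Rps24, a small-subunit protein whose mutation in humans causes Diamond-Blackfan anaemia, had 54.5 to 444 CPM with a median of 225 in IPC and 0 to 268 CPM with a median of 6.14 in qNSC (difference 4.62). Both overlapped through their upper qNSC cells. The smallest differences were those of Rps4l (1.37), Rpl7l1 (1.44) and Rpl19 (1.48). Rps4l and Rpl7l1 are paralogues of Rps4x and Rpl7, and Rpl19 is a protein of the large subunit.

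Between IPC and aNSC the members differed while the median gene did not. Of 85 measured members, 81 were higher in IPC, beside 49.1% of all genes. Past the fold and higher were 46 (54.1%), beside 17.4% of all genes higher and 21.3% lower. No member was past the fold and lower, and Rps27 and Rps4l were measured through IPC alone. The members' median difference was 1.48, while that of all genes was -0.04. Past the fold were 24 of 43 large-subunit, 18 of 31 small-subunit, 1 of 3 stalk proteins and 2 of 7 paralogues or copies. Against the 11 aNSC without Pdgfra reads above the limit, the median was 1.52, and 32 members were past the fold and higher, beside 22.8% of all genes higher and 20.5% lower. Without all cells that held markers of another type, 30 members were past the fold, beside 21.9% of all genes. The same direction was seen at each age. Against all aNSC, 48 of 84 members at 4.5 months and 29 of 85 at 2 months were past the fold and higher, beside 22.9% and 22.1% of all genes. At 2 months 1 member, Rpl26, was past the fold and lower in IPC than in aNSC (difference -2.10, ratio 0.186), beside 20.7% of all genes.

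Among the members that differed most between these classes were Rps19bp1 and Rps24. Rps19bp1 had a difference of 2.56 and a ratio of 6.21. Rps24 had 54.5 to 444 CPM with a median of 225 in IPC and 0 to 257 CPM with a median of 66.8 in aNSC (difference 2.50, ratio 2.53). The ranges of Rps24 overlapped, and most aNSC also carried reads of it (15 of 18). On the other side 4 members had a lower mean in IPC, namely Rpl7l1 (-0.87), Rpl29 (-0.27), Rpl22l1 (-0.22) and Rpl19 (-0.07). For Rpl7l1 the ratio of summed CPM was 1.36, and by summed CPM Rpl19 and Rpl29 were also higher in IPC. For these members the 2 summaries thus disagree in direction.

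Between aNSC and qNSC most members were again higher, but so were most genes. Of 84 measured members 82 were higher in aNSC, beside 78.6% of all genes, and 26 (31%) were past the fold, beside 24.1% of all genes higher and 4.57% lower. The count past the fold is thus not far from the background, while the members' median difference was 1.80 against 0.80. Their median ratio of summed CPM was 1.74, against 1.38 over all genes. By role, 13 of 43 large-subunit, 12 of 30 small-subunit and 0 of 3 stalk proteins were past the fold, and 1 of 7 paralogues or copies. Without the 7 Pdgfra-positive cells the median difference was 1.75, and 38 members were past the fold, beside 20.4% of all genes higher and 5.08% lower. Within the ages 28 of 83 members at 4.5 months and 33 of 84 at 2 months were past the fold and higher, beside 31.6% and 27.2% of all genes. Without the 1 aNSC whose share stood apart, 18 members were past the fold, beside 24.7% of all genes. Without all cells that held markers of another type 47 were, beside 20.9%. The 7 cells set against the other 11 aNSC had a median of 0.14 (all genes 0.47), with 2 of 83 members past the fold and higher and 5 lower, beside 25.2% and 17% of all genes. The members' median ratio of summed CPM was 0.776 (all genes 1.13), so that the summaries disagree in direction.

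Rps3a1, a small-subunit protein, had 0 to 614 CPM with a median of 228 in aNSC and 0 to 472 CPM with a median of 40.8 in qNSC (difference 3.17, ratio 2.86). Rps16, also of the small subunit, followed with 2.91. Rpl29, a large-subunit protein, had 2.76 to 275 CPM with a median of 65.9 in aNSC and 0 to 233 CPM with a median of 16.9 in qNSC (difference 2.86). In all 3 the ranges of the classes overlapped widely. Rps4l (-0.33) and Rps19bp1 (-0.14) were the members with a lower mean in aNSC. Rps4l, read in 2 of 18 aNSC and 15 of 60 qNSC, was measured through qNSC alone, and the third smallest difference was that of Rpl37rt (0.17), a copy of Rpl37.

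**Figure D2:**
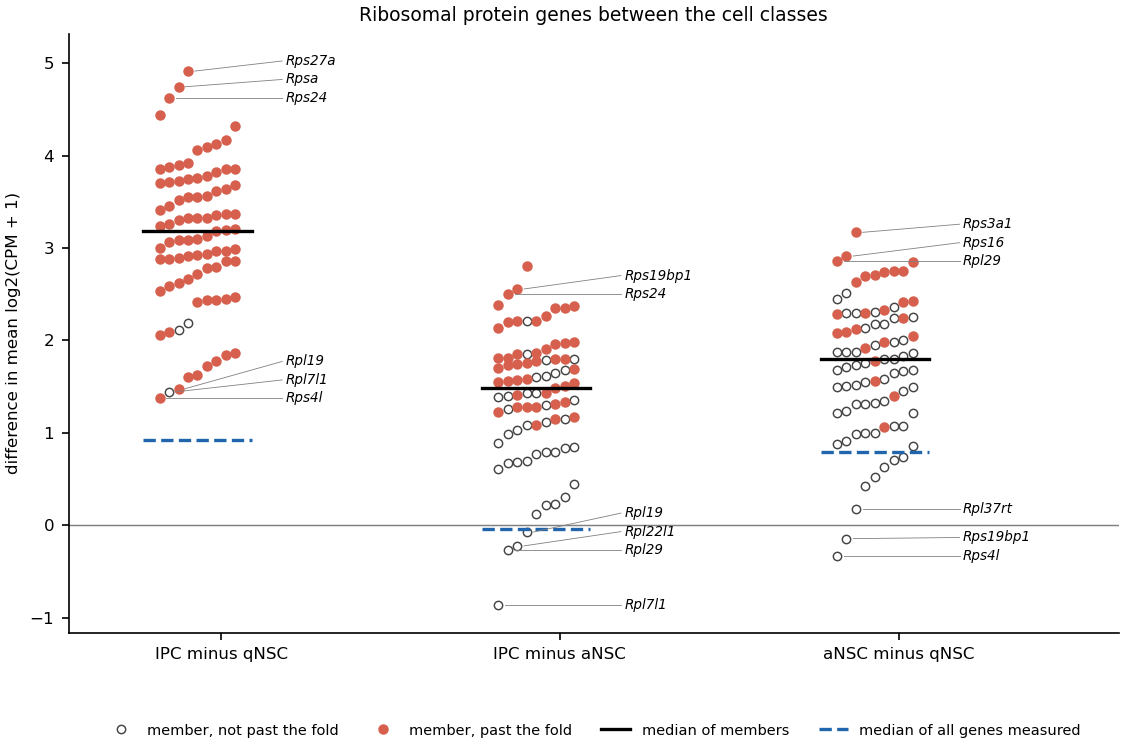
Difference in mean log2(CPM + 1) of each measured member between classes, 1 point per gene, filled where past the fold; solid lines mark the median of the members and broken lines the median of all genes measured. The members' median lies above that of all genes in each comparison (3.18 and 0.92, 1.48 and -0.04, 1.80 and 0.80), and members below 0 are labelled.

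Over the 3 classes, 79 of 85 members (92.9%) ran from qNSC at the bottom through aNSC to IPC at the top by mean log2(CPM + 1), beside 37.5% of the 9666 genes measured. The 6 that did not were Rpl7l1, Rpl19, Rpl22l1, Rpl29, Rps4l and Rps19bp1. By summed CPM 79 members also kept the order, beside 30.4% of genes, and the exceptions were Rpl13, Rpl22l1, Rpl28, Rpl30, Rpl37rt and Rps19bp1. Rpl22l1 and Rps19bp1 thus departed by both summaries. The order held in 70 members at 4.5 months (27.5% of genes) and 74 at 2 months (35.7%), and in 63 at both ages (14.99% of genes). Of the 6, Rpl19, Rpl7l1 and Rps4l departed at each age.

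The members that left the order did so in different ways. They lie at chr17:46773907-46782672 (Rpl7l1), chr11:98026710-98030492 (Rpl19), chr3:28805436-28807424 (Rpl22l1), chr9:106429454-106431568 (Rpl29), chr6:148354656-148355598 (Rps4l) and chr15:80260615-80264315 (Rps19bp1) in GENCODE's annotation of mm10. Rpl7l1, which in human cells takes part in assembly of the large subunit, had 0 to 559 CPM with a median of 105 in IPC, 0 to 345 CPM with a median of 147 in aNSC and 0 to 628 CPM with a median of 1.61 in qNSC. It was read in 15 of 18 aNSC but 7 of 11 IPC and 32 of 60 qNSC, and the highest cell of each class lay above 300 CPM. Rpl22l1, the paralogue that can replace Rpl22, had 0 to 185 CPM with a median of 76.4 in IPC, 0 to 275 CPM with a median of 50.7 in aNSC and 0 to 269 CPM with a median of 0.824 in qNSC, close together in the first 2 classes. Rps19bp1 was read in 8 of 11 IPC, 8 of 18 aNSC and 26 of 60 qNSC, and its summed level was 106 CPM (99.4 to 112), 17.02 CPM (15.04 to 19.2) and 35.7 CPM (34.1 to 37.3) in the same order (95% exact Poisson intervals, which cover counting error only). The aNSC interval lay below both others. Rpl19 and Rpl29 had medians of 345 and 138 CPM in IPC, 207 and 65.9 CPM in aNSC, and 115 and 16.9 CPM in qNSC. By the median both thus followed the order. Reads of Rpl19 were found in 9 of 11 IPC and 17 of 18 aNSC, and of Rpl29 in 9 of 11 and 18 of 18.

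**Figure D3:**
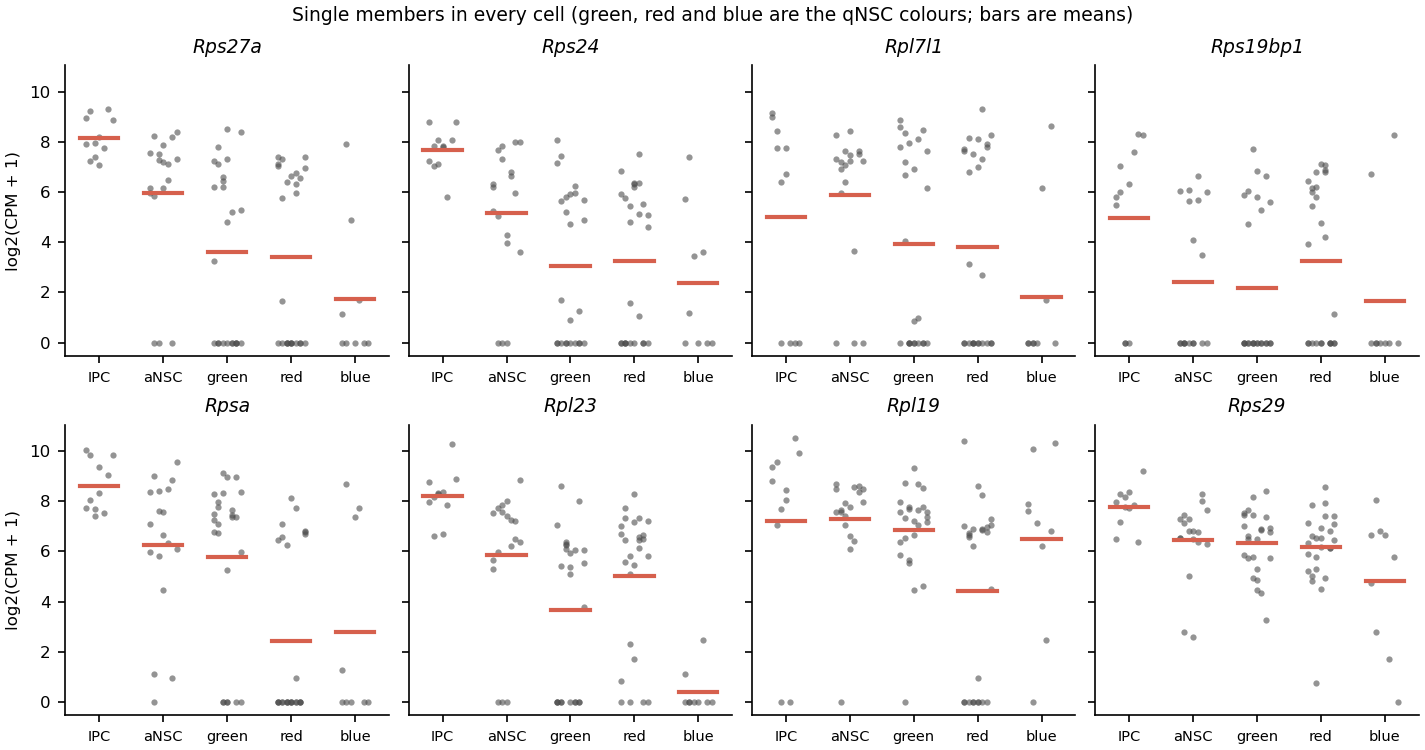
Level of 8 members in each cell, as log2(CPM + 1), by class and qNSC colour, 1 point per cell with the mean as a bar. In Rps27a, Rps24 and Rpsa all IPC carry reads while many qNSC lie at 0; in Rpl7l1 and Rpl19 the aNSC mean is above the IPC mean, and 4 and 2 of 11 IPC lie at 0.

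Members with roles beyond the ribosome's core followed the rest between IPC and qNSC. The stalk proteins Rplp0, Rplp1 and Rplp2 recruit elongation factors. Rplp0 had medians of 450.1, 184 and 83.8 CPM in IPC, aNSC and qNSC, Rplp1 110.1, 93.1 and 52.3 CPM, and Rplp2 122, 87.8 and 53.5 CPM. Their differences of 3.36, 1.77 and 2.09 between IPC and qNSC spanned from just above to well below the members' median. In the small subunit, Rps6, the substrate of S6 kinase, differed by 3.57. For Rps3, which lies at the mRNA entry channel and also acts in DNA repair, the difference was 4.07. Rps19, the gene most often mutated in human Diamond-Blackfan anaemia, had 3.85 and a ratio of 5.82. Rps4x, encoded on the X chromosome, had 3.32.

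In the large subunit, Rpl5 and Rpl11 form a particle with 5S ribosomal RNA that binds Mdm2, the ubiquitin ligase of p53. Rpl5 had 0 to 715 CPM with a median of 338 in IPC and 0 to 1287 CPM with a median of 60.4 in qNSC (difference 3.31), and Rpl11 59.5 to 532 CPM with a median of 175 and 0 to 221 CPM with a median of 33.5 (difference 3.55). Rpl3, at the peptidyl transferase centre, differed by 4.10, Rpl10, which joins late in assembly, by 3.24, and Rpl39, at the exit tunnel, by 3.85. Rpl13a, which can leave the ribosome to restrain translation of inflammatory mRNAs, differed by 3.71. All of these were past the fold. Between IPC and aNSC, Rpl5 (0.89), Rpl10 (0.79) and Rps6 (1.79, ratio 1.82) were not.

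Levels of different genes can be set side by side only per length, in TPM. Over all 89 cells the highest means were those of Rps29 (951 ± 734 TPM), Rpl13 (905 ± 1242 TPM) and Rpl41 (885 ± 798 TPM). Rpl41 encodes the smallest ribosomal protein and Rpl13 a large-subunit protein. Rpl41 followed the class order with 2167 ± 978 TPM in IPC, 1048 ± 717 in aNSC and 601 ± 492.9 in qNSC. Rpl13 instead had its highest mean TPM in aNSC, with 1550.0 ± 587 TPM in IPC, 2209 ± 2079 in aNSC and 395 ± 370.3 in qNSC, where the SD in aNSC nearly equals the mean. By mean log2(CPM + 1) Rpl13 was higher in IPC than in aNSC (0.69) and kept the class order. The lowest means among members read in at least 20% of cells were those of Rpl37rt (6.24 TPM), Rps15a (14.2 TPM) and Rps4l (29.3 TPM). For Rps15a, a core small-subunit protein, 71.2% of the values above 0 were not whole, which marks reads shared out between near-identical sequences. Its counts were not low. In IPC of 2 months it was read in 100% of cells, with a mean log2(CPM + 1) of 7.16, beside 60% and 3.93 for Rps4l. The TPM of Rps15a is thus no sign that the gene is barely read, and why it is low was not tested.

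Such sharing decided how some members could be read. Rps27 was read in 9 cells only, the fewest of all core members, although it encodes a universal small-subunit protein. A copy of its gene without introns, Rps27rt, lies on chromosome 9, and their coding sequences of 252 bases have 0 differences. The longest identical run between the transcripts was 341 bases. The sequence is shown because no read within it can be given to one gene or the other; it is the coding strand of both, with the Rps27 gene at chr3:90212522-90213651 (minus strand) and Rps27rt at chr9:114982366-114982739 (minus strand) in GENCODE's mm10 annotation, all in lower case since no base differs.
Rps27 and Rps27rt: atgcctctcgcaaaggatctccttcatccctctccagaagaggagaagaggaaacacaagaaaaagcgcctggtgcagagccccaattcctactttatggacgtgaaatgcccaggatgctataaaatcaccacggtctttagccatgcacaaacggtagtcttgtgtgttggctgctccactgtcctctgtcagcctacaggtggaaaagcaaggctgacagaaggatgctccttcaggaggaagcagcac

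Rps27rt averaged 1430.3 ± 1029.6 TPM in IPC, 844 ± 926 in aNSC and 494 ± 539 in qNSC, while Rps27 averaged 278 ± 558, 21.1 ± 89.4 and 24.96 ± 119.8 TPM. Most of the pair's level was thus listed under the copy, and only their sum can be interpreted. Rps27l, a paralogue known as a p53 target, shares no run longer than 11 bases with Rps27. Its 1215 ± 572 TPM in IPC, 901 ± 476 in aNSC and 497 ± 570.3 in qNSC rest on sequence not shared with Rps27, and it followed the class order. Rpl37rt shares a run of 257 bases with Rpl37, and all its values above 0 were not whole. Rpl34 shares 185 bases with Rpl34-ps1, a pseudogene outside the members that averaged 799, 417 and 227 TPM in the 3 classes, against 219, 96.6 and 49.7 TPM for Rpl34. In all, 14 members had more than 10% of their values above 0 not whole, and their single values are uncertain for that reason.

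The paralogues that differ in sequence could be told apart from their partners. Rpl22l1 was the main form over Rpl22 in every class. It averaged 433 ± 324 TPM in IPC, 438 ± 382 in aNSC and 173 ± 289 in qNSC, against 74.9 ± 63.3, 32.7 ± 48.96 and 21.7 ± 51.1 TPM for Rpl22. Over all cells Rpl22 followed the class order and Rpl22l1 did not, its means being close between IPC and aNSC. These differences were not alike at both ages. The difference in mean log2(CPM + 1) between IPC and aNSC was -1.71 at 4.5 months and 1.28 at 2 months for Rpl22l1, and -0.02 at 4.5 months and 3.82 at 2 months for Rpl22. Likewise Rpl36al, with 682 ± 541, 459 ± 318 and 345 ± 429 TPM in IPC, aNSC and qNSC, exceeded Rpl36a with 514 ± 437, 237 ± 194 and 82.4 ± 163 TPM. Rpl36a differed more between IPC and qNSC (4.12, ratio 4.89) than Rpl36al (2.18, ratio 1.88). Their coding sequences are 87.7% identical, with no identical run above 24 bases.

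In the pairs of Rpl7 and Rps4x the canonical gene was the higher one. Rpl7 averaged 729 ± 669 TPM in IPC, 425 ± 284 in aNSC and 242 ± 334 in qNSC, and Rpl7l1 113 ± 123, 89.5 ± 67.7 and 63.7 ± 88.5 TPM. Rps4x averaged 619 ± 460.3, 356 ± 326 and 215 ± 293 TPM, and Rps4l 68.1 ± 99.8, 20.7 ± 74.6 and 24.7 ± 69.4 TPM. The level of Rps4l was below that of Rps4x in each class. Rps4l was read in 4 of 11 IPC, 2 of 18 aNSC and 15 of 60 qNSC.

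**Figure D4:**
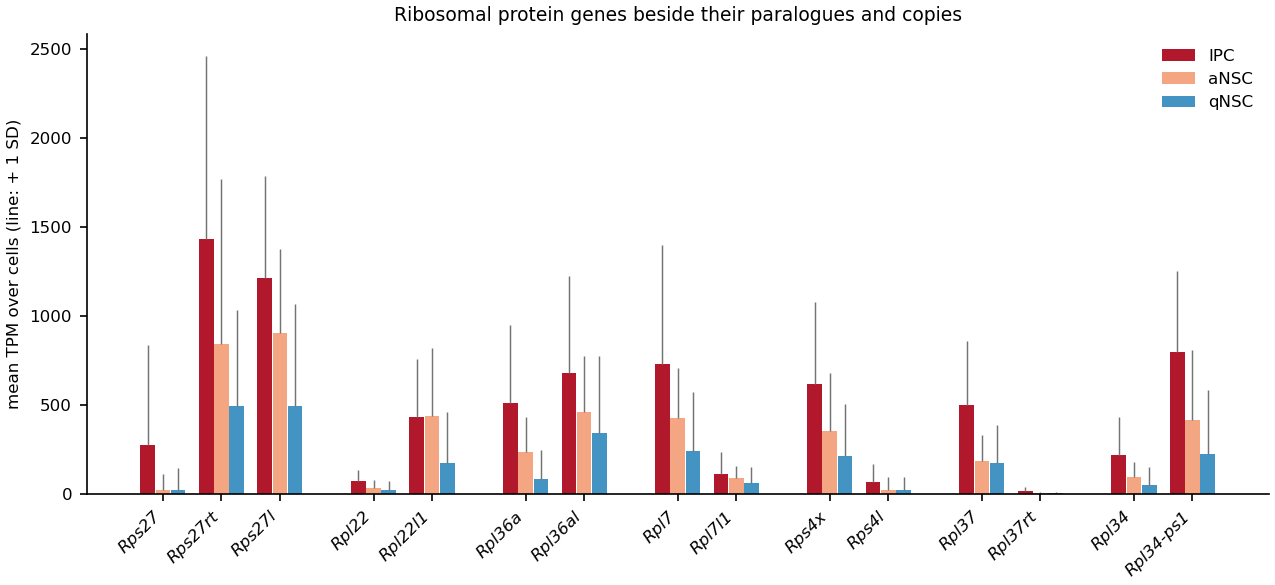
Mean TPM over cells, with a line of 1 SD above it, of canonical members and their paralogues or copies in IPC, aNSC and qNSC. Rpl22l1 exceeds Rpl22, Rpl36al exceeds Rpl36a and Rps27rt exceeds Rps27 in each class, whereas Rpl7 and Rps4x exceed Rpl7l1 and Rps4l.

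The start sites of the genes were read to see whether the members that departed carry the run of pyrimidines. RefSeq promoter windows (GRCm38.p6) matched 67 members. A run was counted where a C followed by at least 4 further C or T letters began within 5 bases of the annotated start, on the strand of the gene. It was present in 30 of 67 members (44.8%), beside 21.7% of 17224 genes with a window and 25% of 68 mitochondrial ribosomal protein genes. An annotated start can lie some bases from the start used in these cells, so a missing run is a statement on this window only. Each line gives 40 bases, the annotated start being base 21, and the capitals mark the run. The first 5 show how long the run can be in core members, at chr7:109519175-109519214 (plus strand) for Rpl27a, chr4:86857348-86857387 (minus strand) for Rps6, chr14:18270967-18271006 (minus strand) for Rpl15, chr7:45128726-45128765 (minus strand) for Rpl13a and chr17:27635225-27635264 (minus strand) for Rps10.
Rpl27a: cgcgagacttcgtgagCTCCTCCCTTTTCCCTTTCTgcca
Rps6: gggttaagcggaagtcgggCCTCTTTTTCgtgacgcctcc
Rpl15: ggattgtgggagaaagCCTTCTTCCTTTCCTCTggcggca
Rpl13a: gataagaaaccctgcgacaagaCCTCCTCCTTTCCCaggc
Rps10: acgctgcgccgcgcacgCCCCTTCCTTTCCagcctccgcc
The next 3 are a paralogue, a gene and its copy, at chr3:28805488-28805527 (plus strand), chr3:90213629-90213668 (minus strand) and chr9:114982720-114982759 (minus strand).
Rpl22l1: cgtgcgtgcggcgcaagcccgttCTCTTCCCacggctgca
Rps27: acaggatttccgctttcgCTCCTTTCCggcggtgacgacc
Rps27rt: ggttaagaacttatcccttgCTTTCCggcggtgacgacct
The last 3 had no run by this rule, at chr17:46782637-46782676 (minus strand), chr15:80264287-80264326 (minus strand) and chr9:120127746-120127785 (plus strand).
Rpl7l1: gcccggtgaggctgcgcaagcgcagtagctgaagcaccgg
Rps19bp1: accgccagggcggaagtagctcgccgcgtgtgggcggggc
Rpsa: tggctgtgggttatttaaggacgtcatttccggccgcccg

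Of the members that left the class order, Rpl22l1 and Rpl19 had a run, and Rpl7l1 and Rps19bp1 had none. Rpsa had none either but followed the class order, and a missing run was thus not particular to departing members. Rpl29 and Rps4l had no window. In the 300 bases from 250 before to 50 after the start, on both strands, the letters CCGGAAG (the core of an ETS-family motif) were found in 38.8% of members, 12.8% of all genes and 36.8% of mitochondrial ribosomal protein genes. AAGATGGC, the core of the YY1 motif, which can share its first 3 letters with the end of CCGGAAG, was found in 8.96%, 3.63% and 17.6%. GGGCGG, the core of the Sp1 motif, was found in 61.2%, 49.6% and 50%, and TATAAA in 10.4%, 14.2% and 7.35%. A match describes the letters and says nothing of binding.

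Other genes of the translation machinery were compared from lists of the pathway. A further 3 ribosomal proteins fall outside the naming rule. All 3 were higher in IPC than in qNSC, among them the ubiquitin-like fusion Fau by 1.30 and Gnb2l1 (Rack1), a scaffold on the small subunit, by 3.06. Of 16 other TOP mRNAs, 16 were higher, beside 68.9% of all genes, and 14 past the fold, beside 34.9%. Their median was 3.03, close to the members' 3.18. Among them were the elongation factors Eef2 (4.28) and Eef1a1 (3.07) and the RNA-binding protein Hnrnpa1 (7.94). Of 30 ribosome biogenesis genes 29 were measured, 27 higher and 21 past the fold, beside the same 34.9% (median 2.44). The pseudouridine synthase Dkc1 (6.29), the box C/D protein Nop58 (4.71) and Pes1 of the PeBoW complex (4.70) led, while Ltv1 (-1.14) and Sbds (-0.35), which act late on the small and large subunit, were lower.

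RNA polymerase I and the regulators differed less. Of 14 polymerase I genes 11 were measured in IPC against qNSC, 10 higher and 4 past the fold, near the 34.9% of all genes. Their median was 1.57, with the rDNA transcription factor Ubtf at 4.41. Of 13 regulators of ribosomal protein mRNAs, 9 were measured, 6 higher and 3 past the fold, also near that 34.9%. Their median was 0.94, with Mycn at 2.74. Of 77 mitochondrial ribosomal proteins, which form the separate ribosome of that organelle, 65 were higher, 16 past the fold and higher and 1 lower (median 1.31). Beside 34.9% of all genes past the fold and higher and 14.4% lower, the mitochondrial counts past the fold were below the background. The mitochondrial median lay nearer to the 0.92 of all genes than to the 3.18 of the cytosolic members.

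Between IPC and aNSC the medians were 1.65 for the TOP mRNAs (6 of 16 past the fold), 1.18 for biogenesis (9 of 29), 0.28 for polymerase I (3 of 13 higher and 1 lower) and 0.44 for the mitochondrial list (5 of 77 higher and 2 lower), beside 17.4% of all genes higher and 21.3% lower. Rps6kb1, the S6 kinase that phosphorylates Rps6, was lower in IPC (-2.31) and higher in aNSC than in qNSC (4.30). The regulators' median between IPC and aNSC was -0.57. Between aNSC and qNSC the medians were 1.53 for the TOP mRNAs (6 of 16), 1.43 for biogenesis (11 of 29), 1.05 for polymerase I (2 of 12) and 0.88 for the mitochondrial list (6 of 77), beside 0.80 for all genes, of which 24.1% were past the fold and higher.

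Among qNSC, green cells had a somewhat higher level of most members than red cells. Of 84 measured, 57 were higher in green cells, beside 54.0% of all genes. Past the fold and higher were 11 (13.1%), beside 11.1% of all genes, which is near the background. With a pseudocount of 10 the count was 6, beside 3.65% of all genes. None was past the fold and lower, beside 6.08% of all genes. The members' median difference was 0.45 (all genes 0.09), and it was 0.60 at 4.5 months and 0.32 at 2 months (all genes 0.18 and 0.05). Their median ratio of summed CPM was 1.25 (all genes 1.17). It was 1.33 at 4.5 months and 1.13 at 2 months (all genes 1.16 and 1.20), so at 2 months it lay below that of all genes. The other TOP mRNAs had a median of 0.44, with 12 of 15 higher, and the mitochondrial list 0.13. Past the fold and higher were 12 of 84 members at 4.5 months and 17 of 84 at 2 months, beside 17.9% and 15.4% of all genes.

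Rpsa stood outside the other members over both ages together. It was read in 19 of 25 green cells at 0 to 549.9 CPM with a median of 162, and in 10 of 26 red cells at 0 to 274 CPM with a median of 0 (difference 3.32, ratio 3.86). The ranges overlapped from 0 upwards, and cells without a read made up most of the red group. The difference was 1.90 at 4.5 months and 4.54 at 2 months. Rpl19 (2.44, ratio 1.27) was next but not past the fold, followed by Rps9 (2.24), a small-subunit protein. The lowest were Rpl27a (-1.42), Rpl23 (-1.33) and Rpl18 (-1.26), all of the large subunit.

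Blue cells had less of most members than the other qNSC, but so did they of most genes. Of 85 measured, 74 were lower and 11 higher, beside 33.1% of all genes higher. Past the fold and lower were 19 (22.4%), beside 22.6% of all genes, which is the background level. With TPM in place of counts 31 were, beside 23.6% of all genes. Rpl22l1, 1 of the 19, was measured through the other qNSC alone. A single member, Rps27, was past the fold and higher, beside 5.97% of all genes. It was read in 3 of 9 blue cells and measured through them alone, and its reads cannot be told from those of Rps27rt. The median difference was -1.13 against -0.51 over all genes, while the median ratio of summed CPM was 0.722 against 0.743. The blue cells of 4.5 months were shallow, with a median total of 442930 counts. The median differences were -1.80 at 4.5 months and -0.44 at 2 months (all genes -0.47 and -0.01). The median ratios were 0.85 and 0.708 (all genes 0.60 and 0.702), so at 4.5 months the summaries disagree on how members compare with all genes. Rpl23, a large-subunit protein, was lowest (-3.95). It was read in 2 of 9 blue cells, at most at 4.52 CPM, and in 72.5% of the 51 others. Rpl24 (-2.95), also of the large subunit, was among the next lowest. Rpl19 (0.89) and Rpl37 (0.76) were the next highest after Rps27 (1.53).

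Between the ages the members showed no common direction. Over all cells, 0 of 84 measured members were past the fold and higher at 4.5 months and 2 lower, beside 1.21% and 4.18% of all genes. The members' median was -0.21, all genes' -0.26. The 2 members were Rpl22 (-1.14) and Rps4l (-1.12), of which Rps4l was measured through the cells of 2 months alone. In qNSC 1 was higher and 3 lower (all genes 3.81% and 8.1%), with a median of -0.26 (all genes -0.22). The member that was higher was Rpl7l1, and Rpl22 was among the 3 that were lower. In aNSC 1 was higher and 7 lower (all genes 14.4% and 19.4%), with a median of 0.12 (all genes -0.15). Without the 1 aNSC of 4.5 months whose share stood apart, 13 were lower, beside 21.2% of all genes. In IPC 3 were higher and 3 lower (all genes 12.8% and 26%), with a median of 0.23 (all genes -0.43). In no class did the members' share past the fold exceed that of all genes in either direction.

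Rpl26, a large-subunit protein, was read in 6 of 6 IPC of 4.5 months at 40.3 to 103 CPM with a median of 67.8, and in 2 of 5 IPC of 2 months at 0 to 17.9 CPM with a median of 0 (difference 4.44, ratio 8.71). These 2 groups of 6 and 5 cells did not overlap, but 92.5% of the gene's values above 0 were not whole and so depend on how shared reads were divided. Rpl22 was read in 3 of 6 IPC of 4.5 months at 0 to 147 CPM with a median of 36.1, and in 5 of 5 IPC of 2 months at 31.95 to 229 CPM with a median of 171 (difference -3.74), with overlapping ranges. Rps4l (-2.83) and Rpl22l1 (-2.19) came next. Rps4l was measured through the IPC of 2 months alone. Both genes of the Rpl22 pair had lower means at 4.5 months in IPC.

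In aNSC, Rpl27a was read in 3 of 7 cells of 4.5 months at 0 to 52.9 CPM with a median of 0, and in 10 of 11 cells of 2 months at 0 to 224 CPM with a median of 37.1 (difference -3.03). Rpl7l1 (-2.78) and Rpl14 (-2.74) were also low, and Rpl10a (2.32) and Rpl8 (1.87) high. Rpl7l1 had opposite signs in the classes. It was read in 19 of 28 qNSC of 4.5 months and 13 of 32 qNSC of 2 months (difference 1.78), in 4 of 7 and 11 of 11 aNSC, and in 3 of 6 and 4 of 5 IPC (difference -2.18). In qNSC its level was 0 to 628 CPM with a median of 133 at 4.5 months and 0 to 467 CPM with a median of 0 at 2 months. Whether the age difference of Rpl7l1 differs between the classes was not tested. Rps7 (-2.02) and Rpl15 (-1.82) were lowest in qNSC, and Rpl35 (1.74) was next to Rpl7l1 at the top.

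Within the qNSC colours, 4 members were past the fold and higher and 5 lower at 4.5 months in green cells (all genes 11.9% and 14.3%), and 5 and 6 in red cells (all genes 10.4% and 14.2%), of 84 and 84 measured. The medians were -0.04 and -0.06. Rpl13a was read in 3 of 10 green cells of 4.5 months at 0 to 127 CPM with a median of 0, and in 14 of 15 of 2 months at 0 to 292 CPM with a median of 69.9 (difference -3.66). In red cells its difference was -0.23. Rpl4, a large-subunit protein that lines the exit tunnel, was read in 10 of 10 green cells of 4.5 months at 126 to 1210.4 CPM with a median of 355, and in 11 of 15 of 2 months at 0 to 1297 CPM with a median of 125 (difference 3.49). Both pairs of groups overlapped. In red cells Rps7 (-3.04) was lowest and Rpl7a (3.01) highest, and Rpl7l1 (2.71) came next to it.

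**Figure D5:**
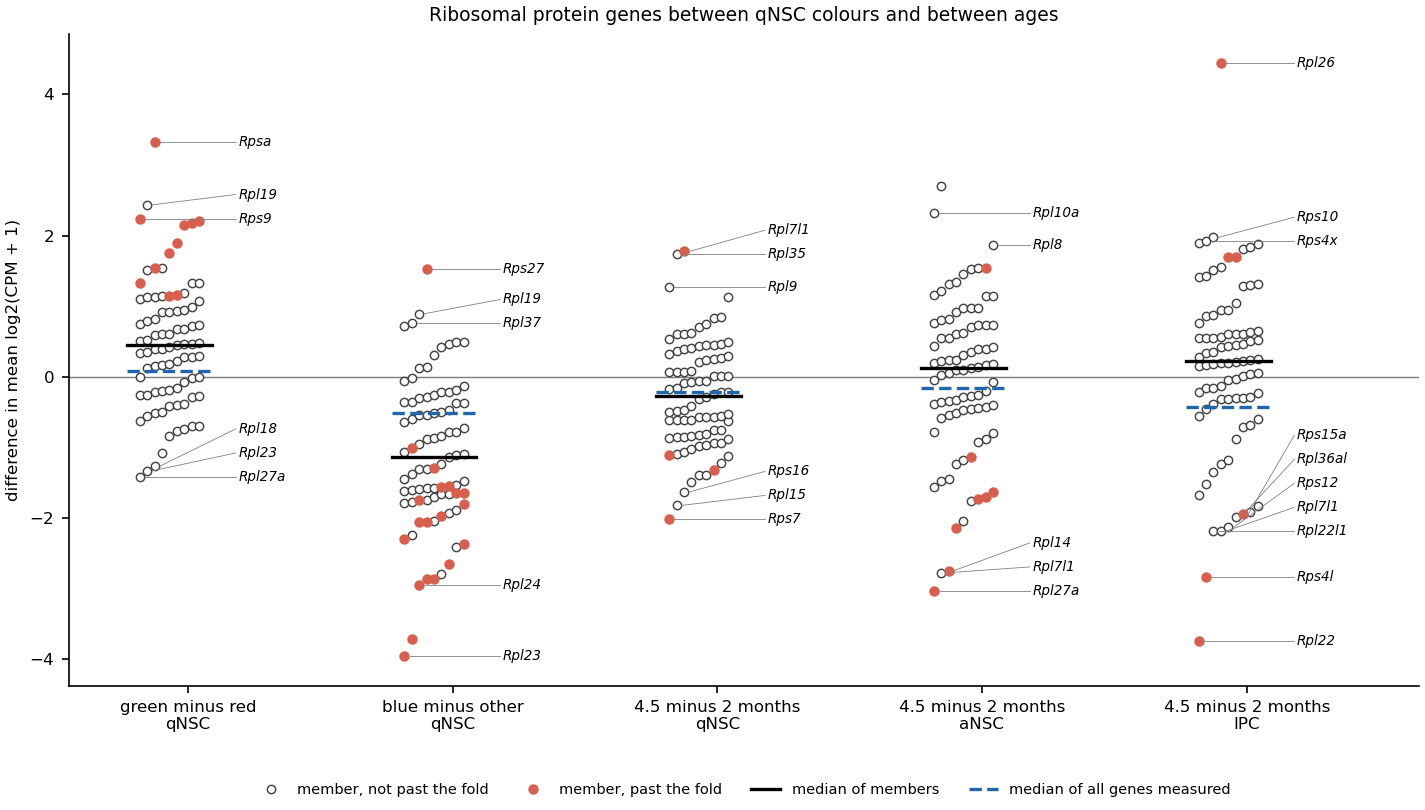
Difference in mean log2(CPM + 1) of each measured member for green against red qNSC, blue against the other qNSC, and 4.5 against 2 months within groups, 1 point per gene, filled where past the fold, with the members' median as a solid line and that of all genes as a broken line. Members spread to both sides of 0 in the 3 age comparisons, and Rpsa (3.32) stands apart between green and red cells of both ages together.

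Because the ages also differ in sex-linked transcripts, the X-linked members are given as a group. Over all cells the differences between 4.5 and 2 months were -0.84 for Rpl10, -0.33 for Rpl36a, -0.07 for Rpl39 and 1.06 for Rps4x, beside a median of -0.21 for the members. Rps4x was higher at 4.5 months in qNSC (0.84), aNSC (1.14) and IPC (1.92), though its ratio of summed CPM was 1.46 over all cells and it was not past the fold. Its level was 0 to 688 CPM with a median of 127 over cells of 4.5 months (31 of 41 with a read), and 0 to 741 CPM with a median of 78.3 over cells of 2 months (28 of 48 with a read). In IPC all 4 had a higher mean at 4.5 months, with Rpl10 at 1.81, Rpl36a at 1.69 and Rpl39 at 1.29, beside a median of 0.20 for the other members. Each of the 4 was read in 100% of the 6 IPC of 4.5 months and 80% of the 5 of 2 months. Only Rpl36a was past the fold. Over all cells the 4 did not share a direction.

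Over the 60 qNSC, members varied together weakly. Spearman's rho of a member's log2(CPM + 1) with the mean of the other members had a median of 0.26 over 84 measured members. It was highest for Rps21 (0.58), a small-subunit protein, and lowest for Rps4l (-0.15), Rpl30 (-0.07) and Rps2 (-0.03). In Rpl30, 68.8% of values above 0 were not whole, whereas Rps2 is a core small-subunit protein read in most cells. The cells share differences in depth and in the number of genes caught. The number of members with a read had a rho of 0.51 with the genes read per cell and of 0.03 with the total count. For the share of counts, rho was -0.31 with the genes read and 0.03 with the total count.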

How the data were processed

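Single cells of the dentate gyrus were sorted onto slides and amplified with the SMART-Seq v4 kit, and Nextera XT libraries were made, per the labels' protocols. The authors deposited estimated counts of each gene in each cell, a deposited table of TPM, and a table with each cell's class and colour code. STAR and RSEM are named in the submitters' processing notes, as is the build mm10, with versions not given in the sources used here. The kit does not record strand, and reads carry no molecular identifiers. Of the deposited count values above 0, 4.44% over all genes and 8.08% over the members were not whole (tolerance 1e-06); they were kept in sums and rounded for detection and intervals.

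Counts were scaled to CPM by each cell's total and taken as log2(CPM + 1). Each group was summarised by the mean and SD, the number of cells in which the gene was read and the CPM of summed counts with an exact 95% interval, for all 24411 genes. A gene was compared where 20% or more of either group's cells had a read, and a gene is past the fold where means differ by at least 1 and summed CPM by at least 2 times. Total counts of 234608 to 1896075 per cell set the precision: a count of 0 allows up to 3 counts. No test of a difference between groups was run, because each sample is 1 cell and no animal is named. No label says what the numbers in the titles stand for, and they were read as cell names.

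The members, lists and rules were chosen with earlier results of these data known. Members named are those with the opposite sign to the members' median or more than 1.5 interquartile ranges outside the quartiles, the 3 highest and 3 lowest per comparison, and members fixed for their roles, such as the stalk, X-linked members and paralogues. A member chosen for detail beyond these rules, such as Rpl13 and Rps15a for their level, was taken as one of the 3 highest or lowest in TPM. Hopx, Pdgfra and the other markers come from lists of cell type markers. Promoter windows are from RefSeq (GRCm38.p6), and gene positions and coding sequences from GENCODE. Python 3.11.15 with numpy 2.4.6, pandas 2.3.3, scipy 1.17.1 and matplotlib 3.10.9 was used, and the procedure was tested on simulated data. The values of some genes are not reported here. Alternatives in unit, pseudocount, filter, scaling, depth, summary and cells were computed.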

Additional observations from a re-analysis of the deposited data

Results flagged for a closer look

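Among the 7 aNSC of 4.5 months, 1 cell lay far from the others in its share of counts on ribosomal protein genes. It stood at 2.12%, the next highest at 1.08% and the lowest at 0.78%, so that its gap to the next was 0.779 of the group's range, above Dixon's 95% critical value of 0.568 for 7 samples. The mean of the other 6 was 0.912% ± 0.131 (SD). The cell had a total of 1095662 counts, 4142 genes with a read and 75 members with a read. By chance about 1 group in 20 would hold such a cell, and 8 groups were looked at. Without it, 18 members were past the fold and higher in aNSC than in qNSC (24.7% of all genes), against 26 with it (24.1%). Among 754 pairs of a member's differences in matching groups, 0 were past the fold in opposite directions.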

How the results depend on the processing

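The direction of the members' median held under all alternatives run for the class and colour comparisons. Of the recomputed values of single members, 3774 stayed within 1 SD over cells, 37 moved by more and 2 were counted as reversed. That limit is wide, since an SD over cells can exceed a difference. At 2 months Rpl10 differed by 1.73 between IPC and qNSC, with SDs of 3.58 and 3.61. Staying within the limit therefore does not show that a single member's value is stable. With TPM in place of counts, the shares were 6.66% in IPC, 3.62% in aNSC, 1.90% in qNSC, 2.29% in green, 1.68% in red and 1.45% in blue cells, and 31 members were past the fold and lower in blue qNSC (all genes 23.6%). With a pseudocount of 10, the median of IPC against qNSC was 2.11, and 6 members were past the fold in green against red cells (all genes 3.65%). Without cells holding markers of another type, 47 members were past the fold and higher in aNSC than in qNSC (all genes 20.9%) and 30 in IPC than in aNSC (21.9%). In 2-month cells 29 of 85 members were past the fold and higher in IPC than in aNSC (all genes 22.1%), and 48 of 84 in 4.5-month cells (22.9%). For green against red cells there were 17 of 84 at 2 months (all genes 15.4%) and 12 of 84 at 4.5 months (17.9%). The blue median taken from medians over cells was -2.25. The 2 counted as reversed were Rpl22 between IPC and aNSC (-0.017 in 4.5-month cells) and Rpl39 between blue and other qNSC (0.0795 in 2-month cells). Other members also had a different sign at a single age than over both ages. In 2-month cells these included Rpl10 (-0.80) and Rpl22l1 (1.28) between IPC and aNSC, and Rpl26 (-0.28) between IPC and qNSC. The cause was not tested.

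Age medians changed sign with the settings. The members' median ratio of summed CPM pointed the other way from the median difference over all cells (1.08) and in aNSC (0.887). In aNSC the 0.12 was -0.36 after thinning, -0.04 from medians over cells, -0.16 without the 1 cell whose share stood apart (then 13 members past the fold and lower, and 21.2% of all genes) and 0.63 without cells holding markers of another type. In IPC it was -0.04 with size factors, in red qNSC 0.01 with size factors, and over all cells 0.05 after thinning. Leaving out that cell, and members with over 10% of values not whole, were chosen after seeing the data. Dropout limits single members: the median member was read in 66.5 of 89 cells. No paired analysis was possible because no label says what the numbers in the titles stand for, they were read as cell names, and no test between groups was run.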
